A study of Rattus norvegicus with 18 samples.

Results

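Pmp22, Mbp, Mag, Cnp and S100b, 5 genes by which Schwann cells and myelin are recognised, were followed in the fractured femur of rats of 3 ages. They were found as the probe sets that the array's annotation assigns to these symbols alone. The 5 genes have 9 probe sets, out of 4736 genes and 8740 probe sets tested. Where a gene has several probe sets, the brightest over all arrays leads. The question was whether RNA of myelinating cells was lost after the fracture and came back by 6 weeks.

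The 18 Rat U34A arrays each held RNA pooled from 2 female Sprague-Dawley rats. The rats were young (6 weeks old at fracture), adult (26 weeks) or older (52 weeks). Their femur was broken at mid-shaft around an intramedullary rod, and the middle of the bone with callus, cortex and marrow was taken later, at 0.4, 1, 2, 4 or 6 weeks. The controls, called 0 week, are femora of the same 3 ages without fracture. There is 1 array per age and week, so the 3 ages are the replicates of a week (n = 3). The fit removes constant differences between ages. A p-value for a week therefore rests on how the ages differ in their course over time, pooled over all 18 arrays. In this tissue, fewer cells of a type and less RNA per cell cannot be told apart.

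In a peripheral nerve, Schwann cells wrap larger axons in compact myelin. Mbp (myelin basic protein) and Pmp22 (peripheral myelin protein) are components of that compact myelin. Mag (myelin-associated glycoprotein) sits in the membrane that faces the axon, and Cnp, the cyclic nucleotide phosphodiesterase of myelin, in the cytoplasmic channels. S100b is a calcium-binding protein of Schwann cells and astrocytes. When an axon is cut, Schwann cells beyond the cut turn down their myelin genes, and remyelinate axons that grow back. Outside nerve, S100b is also made by chondrocytes and adipocytes, and Pmp22 by fibroblasts. Bone is innervated mostly by thin sensory and sympathetic fibres, in the periosteum and the marrow.

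Array quality was not even. Median signals lay between 149 and 188 arbitrary units, and 10.5% to 17.9% of probe sets were below 20 units, the value to which lower signals were raised. The 3′ to 5′ signal ratio of Gapdh, a measure of RNA integrity, was 3.48 in young rats at 4 weeks and 6.57 in young rats at 6 weeks, against 1.15 to 1.83 on the other arrays. The median probe set changed from 0 week by -0.13 on the log2 scale at 0.4, at 1 and at 2 weeks, by -0.04 at 4 weeks and by -0.06 at 6 weeks. For beta-actin the 3′ to 5′ ratio was 1.82 in the young, 1.20 in the adult and 1.08 in the older control. At 0.4 and 1 week it lay between 1.70 and 2.12. On the same controls 17.2%, 10.5% and 12.4% of probe sets were below 20 units, against 16.4% to 17.9% at 0.4 and 1 week. The part of these differences in the early changes was not tested. The labelled tissue was checked against bone genes. At 1 week 4 of 8 measured were higher and 1 was lower, against 14.6% and 20.4% of all probe sets.

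The 5 genes did not move as a group. By limma's F test over the 5 later weeks all 5 leading probe sets changed, 3 of them higher (Pmp22, Cnp and S100b) and 2 lower (Mbp and Mag), where 26.4% of all tested probe sets changed, 13.4% higher and 13.1% lower. At 0.4 week 1 gene was higher and 2 were lower, against 14.1% and 17.1% of all probe sets. At 1 week 3 were higher and 2 lower, against 14.6% and 20.4%. S100b alone was called at 2 weeks (9.49% of probe sets higher and 10.3% lower). Cnp and S100b were called higher at 4 weeks and at 6 weeks, when 3.31% and 0.561% of all probe sets were higher and 1.77% and 0.32% lower. These calls depended on which age was left out. Without the young arrays limma called 4 of the 5 genes by the F test, with 23.3% of all probe sets called. Without the adult arrays limma called 0 of the 5 genes by the F test (2 at an unadjusted p under 0.05, with 0.297% of all probe sets called), and without the older arrays it called 1 (3 unadjusted, 2.0% of all). Without the young 4 and 6 week arrays Pmp22 was not called by the F test (adjusted p = 0.077). With the adult or the older arrays left out, the one call left in the weekly comparisons was S100b at 1 week. At that week 4.51% of all probe sets were called without the adult and 2.79% without the older arrays. In the fits without the adult or without the older arrays, no difference from 0.4 week was called for the 5 genes. Against 0 week, each of these fits gave 2 genes an unadjusted p under 0.05 at 4 and at 6 weeks. Of all probe sets 12.8% and 7.67% did so without the adult arrays, and 11.1% and 10.2% without the older arrays.

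**Figure D1:**
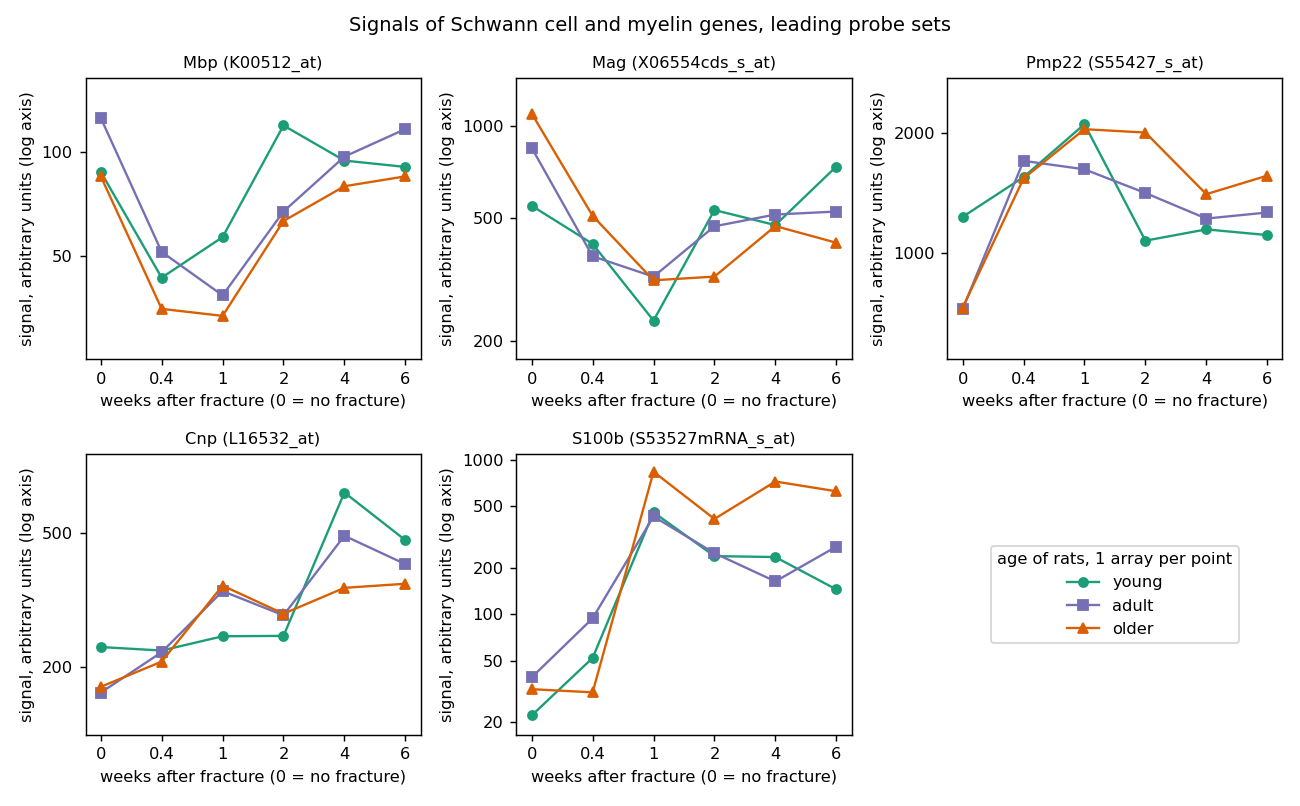
Signal of the leading probe set of each gene in arbitrary units on a log axis, against weeks after fracture (0 = no fracture), with 1 point per array and 1 line per age. The Mbp and Mag points of 0.4 and 1 week all lie below those of 0 week, while S100b lies between 429 and 835 units at 1 week and between 22.1 and 39 units at 0 week.

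**Figure D2:**
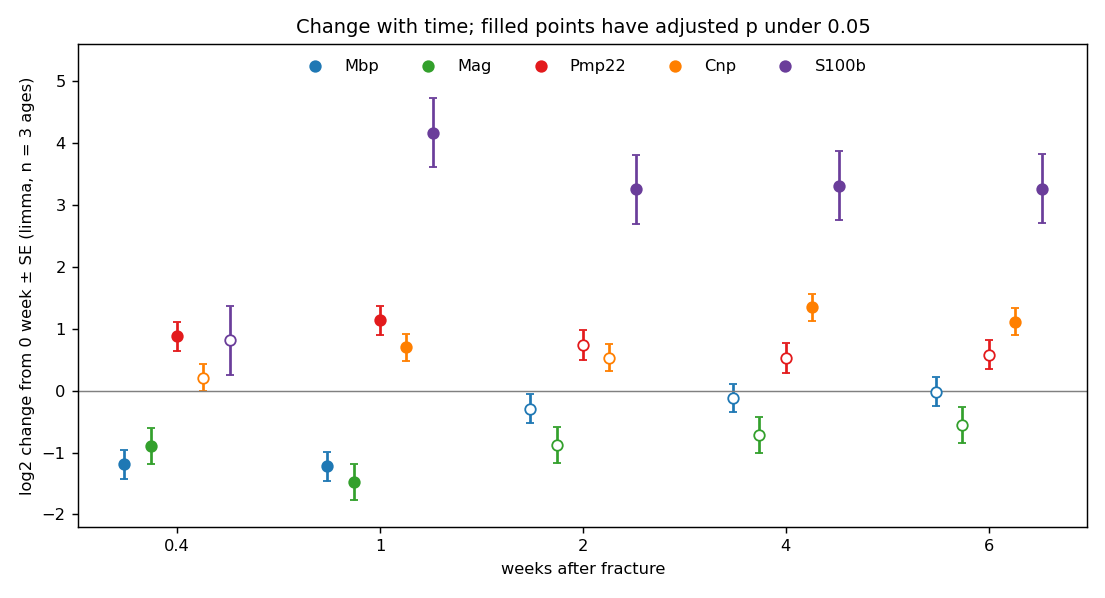
limma log2 change of each leading probe set from 0 week with its standard error (n = 3 ages), by weeks after fracture. Filled points have an adjusted p under 0.05, as Cnp and S100b do at 4 and 6 weeks.

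Mbp, the major protein of compact myelin's cytoplasmic face, fell early and was back by 4 weeks. In young rats its signal was 87.4 units at 0 week and then 43.2, 56.6, 119, 94.2 and 90.3 units at the 5 later times. The adult series over the same times was 125.2, 51.3, 38.4, 67.1, 96.7 and 116.2 units. In older rats the series was 84.9, 35.1, 33.5, 63, 79.4 and 84.8 units. All arrays of 0.4 and 1 week lay below all 0 week arrays, and those of 2, 4 and 6 weeks overlapped them. How many of all probe sets separate in this way was not counted, here or for the other genes. Mbp was 2.29-fold lower at 0.4 week than at 0 week (log2 change -1.19, SE 0.23, adjusted p = 0.0038) and 2.34-fold lower at 1 week (-1.22, SE 0.23, adjusted p = 0.0038). From 2 weeks on it was not called, with log2 changes of -0.29, -0.12 and -0.02 at 2, 4 and 6 weeks. The return itself passed the test on all 18 arrays. Mbp was 2.10-fold higher at 4 weeks than at 0.4 week (adjusted p = 0.017) and 2.25-fold higher at 6 weeks (adjusted p = 0.0090). Of all probe sets 4.87% and 6.01% were called higher in these comparisons. For Mbp neither difference was called without the adult arrays (adjusted p = 0.16 and 0.12) or without the older arrays (0.25 and 0.15).

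The return of Mbp differed in time among the single arrays. At 2 weeks young rats were 0.45 above their own control on the log2 scale, while adult rats were 0.90 below theirs (log2 change -0.90) and older rats 0.43 below (-0.43). Without the young arrays Mbp was called lower at 2 weeks (-0.67, adjusted p = 0.037). Over 1 and 2 weeks the older minus young log2 difference was -0.84 (SE 0.18), which limma did not call (adjusted p = 0.58, unadjusted p = 0.0057), and 0.0% of probe sets were called in that comparison.

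Red cell genes moved beside Mbp. All 7 measured genes of the erythroid list were lower at 0.4 and at 1 week, with median log2 changes of -3.23 and -3.62. Of all probe sets 17.1% and 20.4% were lower at these weeks. At 2 weeks 5 of the 7 erythroid genes were lower, against 10.3% of all probe sets, and at 4 and 6 weeks none was called. Their summed signal was 3988.5 to 11046.6 units on the 1 week arrays, against 72578.3 to 107047 units on the 0 week arrays. By array the list's mean log2 change at 2 weeks was -0.15 in young rats, -2.82 in adult rats and -3.40 in older rats. Mbp was above its control in young rats, and below it in adult and older rats, at that time. The probe sets whose log2 signal followed that of Mbp most closely over the 18 arrays included Slc4a1, which encodes the red cell's anion exchanger (Pearson r = 0.89), and Epb41, a protein of the red cell membrane skeleton (r = 0.89), with the kinase gene Eef2k between them (r = 0.89). The Mbp gene also gives transcripts in blood-forming cells of the mouse, from a start upstream of the myelin one, and which transcripts the probe set reads was not analysed here. What part the red cell lineage had in the change of Mbp was not tested.

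**Figure D3:**
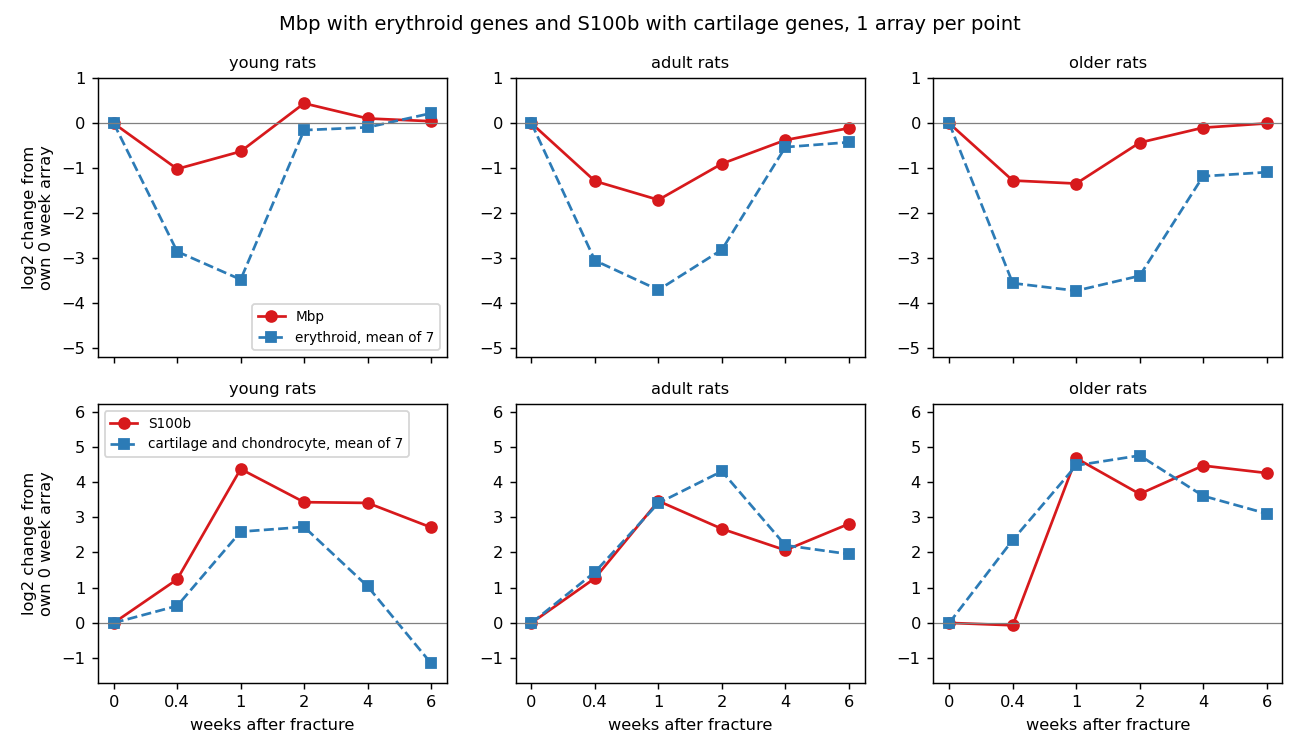
log2 change of single arrays from the 0 week array of the same age against weeks after fracture, with a column of panels for each age. The upper panels show Mbp with the mean of 7 erythroid genes, both near 0 or above at 2 weeks in young rats, and the lower panels S100b with the mean of 7 cartilage genes, which end at 2.71 and -1.15 in young rats at 6 weeks.

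Mag, the adhesion molecule by which the Schwann cell holds the axon, also fell, and no rise above its 0.4 week level was called. Its leading probe set gave 549.8, 413.7, 233.3, 532.5, 475.9 and 736.9 units in young rats from 0 to 6 weeks. Adult rats had 847.4, 377.1, 323.8, 471.7, 515 and 526.6 units at these times. Older rats had 1094.5, 510.1, 315.1, 324, 472.4 and 417.2 units. At 0.4, 1, 2 and 4 weeks every array was below every 0 week array. At 6 weeks the groups overlapped because young rats were above their own control. That array of young rats is the one with the Gapdh ratio of 6.57. The log2 change was -0.89 at 0.4 week (SE 0.29, adjusted p = 0.037) and -1.47 at 1 week (SE 0.29, adjusted p = 0.0043), a level 2.78-fold lower than at 0 week. At 2, 4 and 6 weeks it was -0.88, -0.71 and -0.55, not called (adjusted p = 0.053, 0.15 and 0.30). Against 0.4 week, the log2 differences were 0.18 at 4 weeks and 0.34 at 6 weeks (adjusted p = 0.81 and 0.51). Mag was lowest at 1 week, not at 0.4 week, and its rise from 1 week was not tested.

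The other Mag probe sets gave less. The one next in brightness, which correlated with the leading one at r = 0.71 over the 18 arrays, was lower at 0.4 week (log2 change -0.73, SE 0.23, adjusted p = 0.034) and at 1 week (-0.65, SE 0.23, adjusted p = 0.048), and was not called by the F test (adjusted p = 0.17). The third was between 5.7 and 16.9 units and so below 20 on all 18 arrays. Fracture changed the leading probe set by different amounts at different ages on the single arrays. The mean later-week response was 1.16 lower in older than in young rats on the log2 scale (log2 difference -1.16, SE 0.47), not called (adjusted p = 0.20), and 6.59% of probe sets were called in that comparison. The levels after fracture were closer, with an older minus young difference of -0.16 (SE 0.19, adjusted p = 0.81), and the 0 week signals were 1094.5 units in older rats and 549.8 units in young rats, 1 array each.

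Pmp22, a tetraspan protein of compact myelin, went the other way from Mbp and Mag. Its leading probe set gave 1232.8, 1548.7, 2098.5, 1075.3, 1147.1 and 1110.3 units in young rats from 0 to 6 weeks. In adult rats it gave 726.6, 1699.9, 1619.3, 1413.6, 1220.7 and 1263.9 units. The older rats had 731.9, 1536.6, 2038.7, 1999.6, 1404.1 and 1561.4 units. At 0.4 and 1 week all 3 arrays were above all 0 week arrays. Later weeks overlapped the controls through the young rats, which were below their own control at 2, 4 and 6 weeks. Pmp22 was 1.83-fold higher at 0.4 week than at 0 week (log2 change 0.88, SE 0.24, adjusted p = 0.018) and 2.19-fold higher at 1 week (1.13, SE 0.24, adjusted p = 0.0057). At 2 weeks the change was just short of a call (0.74, adjusted p = 0.0503), and it was 0.53 and 0.58 at 4 and 6 weeks (adjusted p = 0.19 and 0.20). Without the young arrays Pmp22 was called higher at 2, 4 and 6 weeks. The log2 changes in that fit were 1.21, 0.84 and 0.95 (adjusted p = 0.0048, 0.023 and 0.017). Without the adult or the older arrays Pmp22 was called at none of these weeks (0.47 and 0.32 at 6 weeks).

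The fainter Pmp22 probe set did not follow the leading one. It ranged between 75.1 and 167.3 units, correlated with it at r = -0.22 over the 18 arrays, and was called at no week (adjusted p over the F test = 0.65). With both probe sets averaged, the log2 change of Pmp22 was 0.54 at 1 week (adjusted p = 0.017) and 0.30 at 0.4 week (adjusted p = 0.13).

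Pmp22 and Mag ran opposite to each other over the whole series. The Pearson correlation of their leading log2 signals over the 18 arrays was -0.94, a description of arrays that share their time course. Pmp22 was also negatively correlated with Mbp (r = -0.70), and Mbp and Mag were positively correlated (r = 0.59). The genes nearest to Pmp22 were Pdlim4 (r = 0.92), Ptgfrn (r = 0.92) and Thy1, a surface glycoprotein of neurons, thymocytes and fibroblasts (r = 0.92). Those nearest to Mag were Foxe1, a forkhead transcription factor (r = 0.96), Prkar2a, a regulatory subunit of protein kinase A (r = 0.95), and Grin2b, a glutamate receptor subunit (r = 0.95). All 11 measured genes of the fibroblast and fibrous matrix list were higher at 1 week, against 14.6% of all probe sets. At 0.4 week 10 of the 11 were higher, against 14.1%. Their part in the rise of Pmp22 was not tested.

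Pmp22 also gave the lowest unadjusted p among the responses compared between older and young rats. The mean later-week response was 1.08 higher in older than in young rats on the log2 scale (SE 0.32), not called after adjustment (adjusted p = 0.094, unadjusted p = 0.0090). The adult minus young difference in response was 0.85 (SE 0.32, adjusted p = 0.17), with 6.97% of probe sets called. These contrasts rest on 1 control array per age, and the young control was the brightest of the 3. After fracture the older minus young difference in level was 0.33 (SE 0.13, adjusted p = 0.36), and 0.0% of probe sets were called.

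Cnp, an enzyme of non-compact myelin, was higher at 1, 4 and 6 weeks. In young rats it had 229.3, 223.9, 246.8, 247.5, 658.8 and 476 units from 0 to 6 weeks. In adult rats the signals were 167.9, 221.4, 336, 284.8, 490.3 and 404.1 units. In older rats they were 174.7, 207.6, 348.9, 287.9, 343.6 and 353.3 units. From 1 week on every array was above every 0 week array, with the highest signals at 4 weeks in young and adult rats and at 6 weeks in older rats. Cnp was 1.63-fold higher at 1 week than at 0 week (log2 change 0.70, SE 0.22, adjusted p = 0.029), not called at 2 weeks (0.53, adjusted p = 0.10), and 2.55-fold higher at 4 weeks (1.35, SE 0.22, adjusted p = 0.013). At 6 weeks it was still 2.16-fold higher than at 0 week (1.11, SE 0.22, adjusted p = 0.044). Set against 0.4 week, Cnp was higher at 4 weeks (log2 difference 1.14, adjusted p = 0.0090) and at 6 weeks (0.91, adjusted p = 0.021).

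The largest Cnp signal was that of young rats at 4 weeks, and the arrays of young rats at 4 and 6 weeks had the raised Gapdh ratio. Without these 2 arrays the log2 change at 6 weeks was 0.98 against 0 week (adjusted p = 0.056) and 0.78 against 0.4 week (adjusted p = 0.075). Over 4 and 6 weeks the older minus young log2 difference was -0.68 (SE 0.16), not called (adjusted p = 0.16, unadjusted p = 0.0070), and 0.149% of probe sets were called. The part of RNA quality in this difference was not tested. With older against adult rats in its place, the difference was -0.35 (adjusted p = 0.82). Nearest to Cnp over the 18 arrays were Dgka, a diacylglycerol kinase (r = 0.89), Kdm3a, a histone demethylase (r = 0.84), and Cd74, the invariant chain of class II antigen presentation (r = 0.84).

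S100b had the largest change of the 5 genes. Young rats had 22.1, 52.1, 456.3, 237.6, 234.2 and 144.7 units from 0 to 6 weeks on the leading probe set. Adult rats had 39, 94, 429, 248.2, 163 and 273.5 units, and older rats 32.7, 31.2, 835, 413.2, 721.7 and 624.2 units. The 0.4 week arrays overlapped the controls, and all arrays of 1, 2, 4 and 6 weeks were above them. The log2 change was 0.81 at 0.4 week (SE 0.56, adjusted p = 0.28), then 4.17 at 1 week (SE 0.56, adjusted p = 0.00104). It remained 9.53-fold, 9.92-fold and 9.57-fold higher at 2, 4 and 6 weeks than at 0 week (adjusted p = 0.0065, 0.015 and 0.025). Because the control signals lie close to the floor of 20 units, the size of the fold depends on the scale, and with 50 units added to every signal the log2 change at 1 week was 2.89 (adjusted p = 0.00024).

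The fainter S100b probe set ran in the opposite direction. It ranged between 26.3 and 78.5 units, was lower at 1 week (log2 change -0.90, SE 0.31, adjusted p = 0.043), was not called by the F test (adjusted p = 0.31), and correlated with the leading one at r = -0.47. The mean of both probe sets was 1.63 higher at 1 week on the log2 scale (adjusted p = 0.0023).

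**Figure D4:**
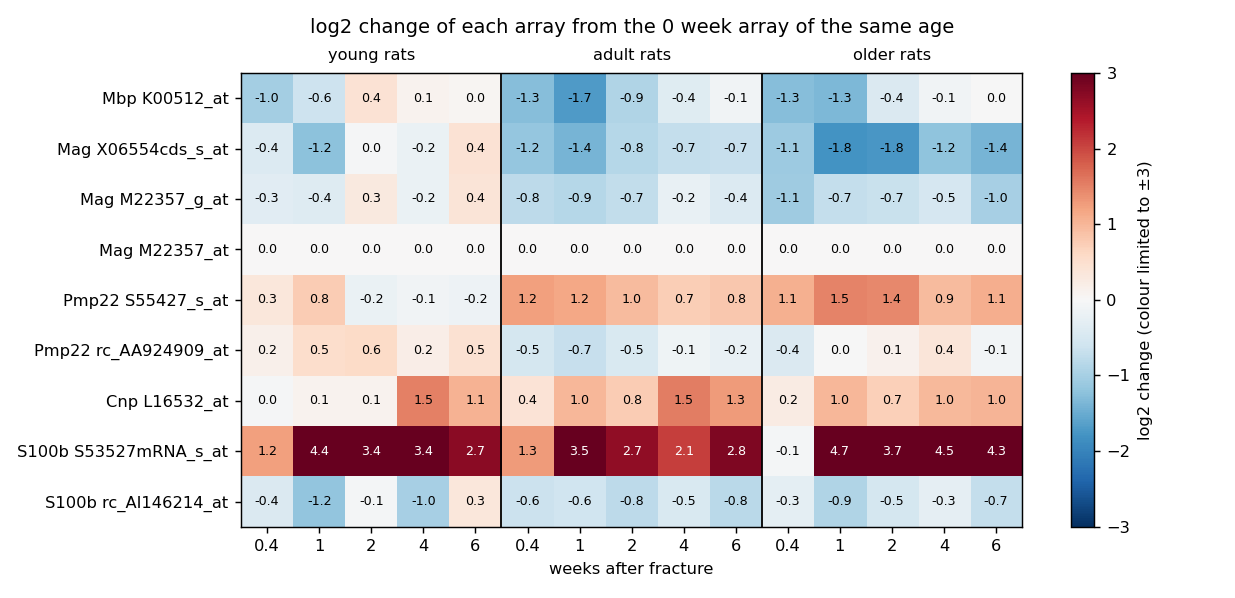
log2 change of single arrays from the 0 week array of the same age for all 9 probe sets (rows) by age and weeks after fracture (columns), red higher and blue lower, with the colour limited at 3 in either direction. The fainter Pmp22 and S100b probe sets do not share the colours of the leading ones, and the third Mag probe set is at the floor throughout.

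From 1 week on the highest S100b signal of each week was that of older rats. At 4 and 6 weeks S100b had 721.7 and 624.2 units in older rats, against 234.2 and 144.7 units in young rats. The older minus young log2 difference over these weeks was 1.87 (SE 0.34), which did not pass after adjustment over all probe sets (adjusted p = 0.12, unadjusted p = 0.0029). It passed under 3 of the 8 alternatives, with a floor of 1 unit (adjusted p = 0.023), with 50 units added to every signal (0.028), and when probe sets with a mean signal under 200 units were left out (0.0087). In place of young rats, adult rats gave an older minus adult difference of 1.67 (adjusted p = 0.41). The young arrays of 4 and 6 weeks are those with the raised Gapdh ratio, and the part of RNA quality in the older minus young difference was not tested. Without these 2 arrays S100b was 3.36 higher at 4 weeks than at 0 week on the log2 scale (adjusted p = 0.031) and 3.63 higher at 6 weeks (adjusted p = 0.037). Over 1 and 2 weeks the older minus young difference was 0.84 (SE 0.34, adjusted p = 0.89).

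Cartilage genes moved beside S100b. At 1 week 6 of the 7 measured genes of the cartilage and chondrocyte list were higher, against 14.6% of all probe sets. They were led by Col2a1, the main collagen of cartilage (log2 change 5.27), and Acan, its large proteoglycan (5.07). The list's summed signal was 12520.3 to 20858.6 units on the 1 week arrays, against 396.4 to 2699.6 units on the 0 week arrays. In the median its genes changed by 3.93 on the log2 scale at 1 week, 4.19 at 2 weeks, 2.29 at 4 weeks and, with none called, 1.49 at 6 weeks. By array, its mean change at 6 weeks was -1.15 in young rats, 1.95 in adult rats and 3.10 in older rats, where S100b changed by 2.71, 2.81 and 4.25. The array of young rats at 6 weeks is the one with the Gapdh ratio of 6.57. Of the 8 measured adipocyte genes 0 were higher and 3 lower at 0.4 week. At 1 week 0 were higher and 2 lower, against 14.6% and 20.4% of all probe sets, and at 2 weeks 0 were higher and 1 lower. At 4 weeks 2 were higher and 0 lower, against 3.31% and 1.77%, and at 6 weeks none was called. The part of chondrocytes and adipocytes in the S100b signal was not tested. The genes nearest to S100b were Spon1, which encodes the matrix protein F-spondin (r = 0.86), Ndrg4 (r = 0.85) and Nupr1 (r = 0.82). Spon1 is among the genes the study singled out on these samples.

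Promoters are shown for 3 of the genes, Mag as the gene with the largest log2 fall of the 5 at 1 week and Cnp and S100b as those still higher at 6 weeks. The windows run from 250 bases before to 50 after the start in RefSeq on GRCr8, and capitals mark the hexamer ACAAAG on either strand, the core of the sites that SOX proteins such as Sox10 bind. Mag is on the minus strand at chr1:95290995-95291294, Cnp on the plus strand at chr10:86011254-86011553, and S100b on the minus strand at chr20:12381032-12381331.
Mag: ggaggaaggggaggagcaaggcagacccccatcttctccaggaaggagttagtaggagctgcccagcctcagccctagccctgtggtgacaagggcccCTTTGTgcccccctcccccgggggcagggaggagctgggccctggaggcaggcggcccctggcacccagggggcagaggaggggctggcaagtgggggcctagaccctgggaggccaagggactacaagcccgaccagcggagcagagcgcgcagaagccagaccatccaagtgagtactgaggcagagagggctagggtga
Cnp: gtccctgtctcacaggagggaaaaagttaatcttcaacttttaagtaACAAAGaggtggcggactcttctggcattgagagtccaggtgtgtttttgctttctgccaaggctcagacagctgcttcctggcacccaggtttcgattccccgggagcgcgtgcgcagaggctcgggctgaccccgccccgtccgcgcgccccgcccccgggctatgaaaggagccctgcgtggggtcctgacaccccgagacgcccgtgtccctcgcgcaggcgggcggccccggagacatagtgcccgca
S100b: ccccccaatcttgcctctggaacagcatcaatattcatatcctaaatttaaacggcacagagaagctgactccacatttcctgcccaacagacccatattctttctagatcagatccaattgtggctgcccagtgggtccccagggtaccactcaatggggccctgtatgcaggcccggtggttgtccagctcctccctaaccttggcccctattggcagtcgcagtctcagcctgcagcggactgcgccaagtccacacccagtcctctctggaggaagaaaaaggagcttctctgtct
The hexamer occurs 1 time each in the Mag and Cnp windows and 0 times in that of S100b. Pmp22 has 0 matches, and of the 2 starts listed for Mbp the first has 0 and the second 1. Among 33469 promoters of the same length, 18.8% hold it.

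Other genes of Schwann cells and myelin leaned lower early. Of 34 listed genes 15 were measured under their symbol, and the others were not analysed here. At 0.4 week 1 of the 15 was higher and 4 were lower, and at 1 week 1 was higher and 7 were lower, against 14.6% and 20.4% of all probe sets. At 2 weeks 0 were higher and 3 lower, and at 4 and 6 weeks none was called. The list's median log2 change was -0.59, -0.83, -0.64, -0.22 and -0.09 at the 5 later times in turn, beside medians over all probe sets between -0.13 and -0.04. Mbp is 1 of 2185 probe sets whose mean signals lay between 48.2 and 176 units, and their medians were -0.36, -0.38 and -0.30 at 0.4, 1 and 2 weeks. By the F test 0 of the 15 listed genes were higher and 4 were lower, against 13.4% and 13.1% of all probe sets.

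Markers of skeletal muscle and of granulocytes fell at the same times. Of 17 measured skeletal muscle genes 14 were lower and 2 higher at 0.4 week, and 13 were lower and 2 higher at 1 week. Of all probe sets 17.1% and 20.4% were lower, and 14.1% and 14.6% higher, at these weeks. The summed signal of the muscle genes was 72708.7 to 110115 units on the 1 week arrays, against 179322 to 328281 units on the 0 week arrays. All 4 measured granulocyte genes were lower at 0.4 and at 1 week, with summed signals of 1506.1 to 1594.3 units at 1 week, against 13224.7 to 25782.6 units at 0 week. The macrophage list went the other way, with 3 of 6 measured genes higher and 0 lower at 0.4 and at 1 week. The part of muscle and marrow cells in the changes of the Schwann cell and myelin genes was not tested.

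The genes called at 1 week among the other Schwann cell and myelin genes are named here. Ugt8, the enzyme that makes the myelin lipid galactosylceramide, had a log2 change of -2.28 (adjusted p = 0.0030), and Cntn2, an adhesion molecule next to the nodes of Ranvier that axons make as well, one of -1.76 (adjusted p = 0.010). Cntn2 is also among the genes the study singled out on these samples, so its fall is not independent evidence. The paper reports detection calls of Absent for Cntn2 on every array. Erbb3, the neuregulin receptor of Schwann cells, changed by -1.27 (adjusted p = 0.0056) and Gjb1, the gap junction protein of myelin, by -1.15 (adjusted p = 0.027). Mobp (-0.96), Foxd3 (-0.95) and Mal (-0.70) were also lower, and Cd9, a tetraspanin that many cells carry, was higher (0.87, adjusted p = 0.0498).

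Regulators of the lineage gave less. Sox10, which defines Schwann cells, was between 4.1 and 14.2 units and so below 20 on all 18 arrays. Egr2, the factor that turns on myelin genes, changed by 0.63 at 1 week and Pou3f1, its upstream partner, by -0.55, neither called. Mog, Nfasc (-0.83), Cntnap1 (-0.72) and Prx (0.49) were not called either.

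Of the genes that Schwann cells of a cut nerve are known to turn on, 9 were measured. At 0.4 week 0 were higher and 3 lower, against 14.1% and 17.1% of all probe sets, and at 1 week 0 were higher and 3 lower, against 14.6% and 20.4%. With 9 genes these counts are near the shares over all probe sets. The list's median log2 change was -0.59 at 1 week. The lower genes at 1 week were Gdnf, a survival factor for neurons (log2 change -2.30, adjusted p = 0.0030), Ngfr, the low-affinity neurotrophin receptor (-2.09, adjusted p = 0.0048), and Lif, a cytokine (-1.45, adjusted p = 0.020). Gdnf is among the genes the study singled out on these samples.

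Genes of neurons and axons were mixed. At 0.4 week 2 of the 35 measured genes were higher and 6 lower, against 14.1% and 17.1% of all probe sets. At 1 week 2 were higher and 9 lower, against 14.6% and 20.4%, with a median log2 change of -0.68. The counts of lower genes are thus near the shares over all probe sets. The lower ones included the sensory sodium channel Scn10a (-1.94, adjusted p = 0.0082), the sympathetic peptide gene Npy (-1.80, adjusted p = 0.0057), Calca, which encodes the sensory peptide CGRP (-1.23, adjusted p = 0.014), and the axonal microtubule protein Mapt (-1.21, adjusted p = 0.0038). Nrgn, a calmodulin-binding protein known from neurons and platelets, had the largest fall of the list (-5.55, adjusted p = 0.00041). Npy and Nrgn are among the genes the study singled out on these samples, so their falls are not independent evidence. Thy1 was higher (2.44, adjusted p = 0.0038). At 6 weeks 1 of the 35 was higher and 0 were lower.

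**Figure D5:**
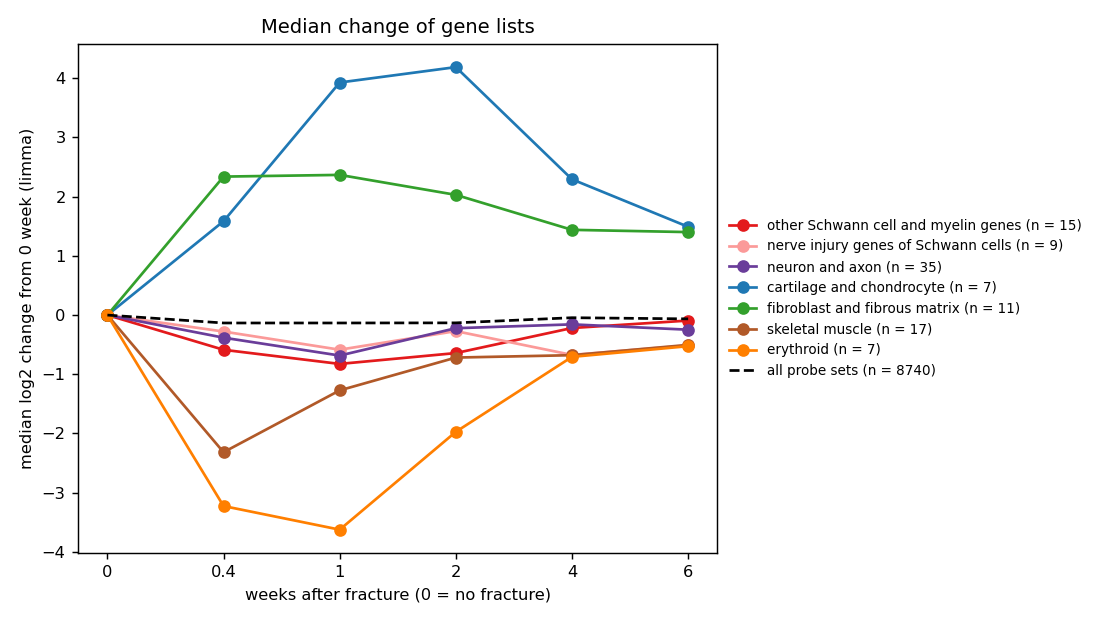
Median limma log2 change from 0 week of each gene list against weeks after fracture, with the median of all 8740 probe sets as a dashed line. The 3 nerve-related lists lie between -0.83 and -0.09 at all later weeks, while the erythroid list reaches -3.62 and the cartilage list 4.19.

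The relatives of S100b and Pmp22 did not share one direction. Among S100 genes, S100a4 (log2 change 1.62, adjusted p = 0.0040) and S100a10 (1.73, adjusted p = 0.0017) were higher at 1 week. S100a1, known from muscle, was lower (-1.34, adjusted p = 0.0048), and so were the neutrophil genes S100a8 (-3.96) and S100a9 (-3.76). Emp1, a relative of Pmp22, changed by 1.17 without passing (adjusted p = 0.055), and Lim2 and S100g were not called.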

How the data were processed

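The deposited values are linear intensity signals, which the authors computed with Microarray Suite 5.0, with every array brought to the average 500. Only the arrays of series 3 were analysed here, 1 per age and week, each of RNA pooled from 2 rats. Of 8799 probe sets, 59 controls were left out. The annotation gives 7006 of the 8740 tested a single symbol, 308 several and 1426 none, and 6985 of those with a single symbol were found in the current rat gene table. Of 153 pairs of arrays 0 were identical.

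A floor of 20 was set on the signals before log2, and arrays were not normalized again. limma 3.58.1 in R 4.3.3 fitted age and week as additive terms on all 18 arrays (10 residual degrees of freedom), with an intensity trend, and p-values were adjusted by Benjamini-Hochberg across the 8740 probe sets (threshold 0.05). Older rats were set against young rats at 1 and 2 weeks together and at 4 and 6 weeks together, each phase having its own age term (4 degrees of freedom), over all later weeks (8), and in their response, the later mean minus the own control (8). Gene lists are described by counts and medians only, and nearest genes by Pearson's r among probe sets with 1 symbol and a mean signal of at least 200 units.

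Named genes were all 5 members with every probe set, all measured genes of the lists of other Schwann cell and myelin genes and of relatives, up to 6 called genes with the largest change at 1 week from each other list, and the 3 nearest genes of each member. The members and lists were chosen with earlier results of these data known. Alternatives covered the floor, an offset, quantile and median scaling, a filter on dim probe sets, the intensity trend, the age and week terms, single ages or weeks left out, averaged probe sets, and the methods' t-test. The fits were tested on simulated data. Figures were drawn with matplotlib 3.10.9.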

Additional observations from a re-analysis of the deposited data

Results flagged for a closer look

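The fainter Pmp22 probe set moved in opposite directions at different ages. Its mean log2 change over the 5 later arrays from the own control was 0.38 in young rats, where all 5 arrays were above it, and -0.40 in adult rats, where all 5 were below. The difference was not tested, each age has 1 control array, and at 75.1 units the young control was the dimmest of the 18 arrays for this probe set.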

How the results depend on the processing

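All values are log2 changes unless a unit is given. S100b at 1 week stayed called under every alternative but the methods' t-test on linear signals (difference 542 units). Leaving out 1 age at a time gave 0.96 to 1.32 for Pmp22, -1.52 to -0.98 for Mbp and -1.59 to -1.31 for Mag at 1 week, and 1.25 to 1.53 for Cnp at 4 weeks. These 4 calls were kept without the young arrays, and lost without the adult and without the older arrays. Each of these fits has 2 arrays a week. With 1 age left out the F test called 0 to 2 genes higher and 0 to 2 lower. It called 1 lower with a mean signal of at least 200 (Mbp is then not tested) and 1 with averaged probe sets. Of all probe sets the F test called 0.297% to 23.3% with 1 age left out, 49.3% with the signal filter and 27.4% with averaging. The methods' t-test gave Pmp22 1.13, Mbp -1.22 and Mag -1.47 at 1 week and Cnp 1.35 at 4 weeks, none past adjustment, and on linear signals 1022, -56.3, -540 and 307 units. At unadjusted p under 0.05 the methods' t-test called 5 genes at 1 week on either scale. Of all probe sets it called 28.5% on log2 and 27.5% on linear signals. Turned directions all belong to differences that were not called. Mbp without the adult arrays was 0.0074 at 2 weeks, 0.0057 at 4 weeks and 0.023 at 6 weeks, against -0.67, -0.23 and -0.055 without the young arrays, and at 6 weeks 0.027 after quantile normalization, 0.011 after median scaling and 0.13 without the young 4 and 6 week arrays. With averaged probe sets, Pmp22 against 0.4 week was 0.031 at 4 weeks and 0.011 at 6 weeks, and Mag was 0.076 for older minus young at 1 and 2 weeks, 0.036 over all later weeks, and 0.043 for adult minus young. Over all later weeks, leaving out 6 weeks gave Mag 0.0021 (older minus young) and 0.070 (adult minus young) and Cnp 0.051 (adult minus young). Leaving out 4 weeks gave Cnp 0.045 (older minus young) and 0.099 (adult minus young), and leaving out 2 weeks gave Mbp 0.022 (adult minus young). The S100b response, adult minus young, was 0.027 after quantile normalization. The cause of these turns was not tested. No paired analysis was possible because the labels give 1 array per age and week and no replicate number to pair, and age is already a term of the fit. With 1 array per age and week, depth in the sense of signal over background limits Mbp and S100b most, whose signals came near the floor of 20 units.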
